A study of Homo sapiens with 8 samples.

Results

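The 10 genes described here are feedback inhibitors and transcriptional outputs of the RAS, RAF, MEK and ERK kinase cascade: SPRY2, SPRY4, SPRED1, SPRED2, DUSP4, DUSP5, DUSP6, ETV4, ETV5 and PHLDA1. They were chosen by name, as genes known to report ERK signalling, and all 10 were found among 31721 Ensembl genes in the deposited expression table. These genes and the lists set beside them were chosen with earlier results of these data known. Counts among them are therefore descriptions and not independent of the data. FPKM are fragments scaled by exon length and by a size factor for each library. Of the 10 genes, 8 reached a mean level of at least 1 FPKM over all libraries and were tested among 12443 genes. DUSP4 and PHLDA1 stayed below that level and are given as values. The cells were A2780, a long-established line from a human ovarian carcinoma, and RNA was sequenced 24 hours into treatment with the solvent DMSO, with olaparib, with palbociclib, or with olaparib and palbociclib together (the combination). Olaparib inhibits the DNA repair enzymes PARP1 and PARP2, and palbociclib inhibits the cell cycle kinases CDK4 and CDK6. Each of the 4 groups had 2 libraries, called biological repeats. The labels do not say whether the repeats were separate cultures, and p-values therefore reflect only how far these libraries spread, which may be technical. All groups share 1 cell line, and doses are not stated in these sources.

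ERK is the last kinase of a cascade that carries growth factor signals from receptor tyrosine kinases through RAS to the nucleus. Active ERK switches on ETS family transcription factors and, within minutes to hours, a set of genes that damp the same cascade. Sprouty and SPRED proteins act upstream, around RAS and RAF. Dual specificity phosphatases of the DUSP family remove the activating phosphates from ERK itself. ETV4 and ETV5 are ETS factors of the PEA3 subfamily that carry the transcriptional output, and PHLDA1 is a pleckstrin homology domain protein induced by growth factors. Messenger levels of these genes are widely used as a readout of ERK output, although other signals also act on them.

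Recovered depth ran from 20566158 to 34057055 reads per library. Markers of the labelled cell identity were mostly near 0: EPCAM, KRT8, KRT18, KRT19, CDH1, PAX8 and MUC16 each stayed at or below 1.07 FPKM, while the mesenchymal filament gene VIM stood at 237 to 253 FPKM in the 4 libraries without palbociclib and at 326 to 350 FPKM in the 4 with it. EPCAM likewise stood at 0.16 to 0.41 FPKM without palbociclib and at 0.74 to 1.07 FPKM with it. The part of either shift in the results was not tested. Of 11 blood, endothelial and fibroblast markers, 9 were listed. DCN and LUM, which mesenchymal cells also make, held nearly all of their summed level (44.6 to 56.9 FPKM over the 8 libraries), and CD68, CDH5, HBB, LYZ, PECAM1 and VWF were at or near 0. As checks on the drugs, the p53 target CDKN1A rose with olaparib (log2 fold change 1.24 ± 0.06, SE) and the cyclin gene CCNA2 fell with palbociclib by 1.23 ± 0.04. The level of 1 set of genes separated the libraries in a way the groups do not: MET, KIT and FGFR2 stood at 0.41 to 0.67 FPKM in both DMSO libraries, olaparib replicate 1 and palbociclib replicate 1, and at 0 to 0.02 FPKM in the other 4. Whether the reads of those genes came from the labelled cells was not tested. None of the 10 genes was split that way without overlap, and their values without each library in turn are given beside the results. A difference of that size would be small beside genes at 8.03 FPKM or more, so its absence there does not clear them. DUSP5 stood at 2.11 to 2.51 FPKM in the same 4 libraries and at 1.64 to 2.16 FPKM in the other 4.

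Promoters of SPRY4, DUSP6 and SPRY2, which had the highest log2(FPKM + 1) changes with palbociclib among the 8 tested genes, are shown first, with that of SPRED1, which did not pass the test, for contrast. RefSeq (GRCh38.p14) gave start sites for 6 of the 10 genes: SPRY2, SPRY4, SPRED1, SPRED2, DUSP6 and PHLDA1. Each sequence is the 250 bases before the RefSeq start, 5′ to 3′ on the strand of the gene. For SPRY2 the most upstream of 3 listed starts was used. Gene positions given below come from another annotation, GENCODE v29. The windows of SPRY4, DUSP6 and SPRED1 lie inside those positions, so they are not upstream of the gene as listed there. Capitals mark matches on either strand to GGAA, the core that ETS factors read (TTCC on the opposite strand), or to the longer ETS sequence CCGGAA.
SPRY2, chr13:80341127-80341376, minus strand: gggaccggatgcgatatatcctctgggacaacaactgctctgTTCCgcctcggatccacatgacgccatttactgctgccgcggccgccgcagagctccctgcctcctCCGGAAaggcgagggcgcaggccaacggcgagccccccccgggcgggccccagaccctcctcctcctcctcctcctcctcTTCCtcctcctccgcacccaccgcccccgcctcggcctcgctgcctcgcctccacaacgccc
SPRY4, chr5:142324248-142324497, minus strand: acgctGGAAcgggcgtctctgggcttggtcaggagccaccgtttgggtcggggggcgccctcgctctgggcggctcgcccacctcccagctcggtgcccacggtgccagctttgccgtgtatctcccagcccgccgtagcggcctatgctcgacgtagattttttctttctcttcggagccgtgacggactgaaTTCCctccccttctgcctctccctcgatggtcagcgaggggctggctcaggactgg
DUSP6, chr12:89352502-89352751, minus strand: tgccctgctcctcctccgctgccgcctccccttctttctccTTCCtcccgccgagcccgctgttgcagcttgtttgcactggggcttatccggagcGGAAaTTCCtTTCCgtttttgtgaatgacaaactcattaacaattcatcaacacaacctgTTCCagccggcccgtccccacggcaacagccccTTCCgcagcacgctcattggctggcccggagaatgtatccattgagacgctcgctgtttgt
SPRED1, chr15:38252586-38252835, plus strand: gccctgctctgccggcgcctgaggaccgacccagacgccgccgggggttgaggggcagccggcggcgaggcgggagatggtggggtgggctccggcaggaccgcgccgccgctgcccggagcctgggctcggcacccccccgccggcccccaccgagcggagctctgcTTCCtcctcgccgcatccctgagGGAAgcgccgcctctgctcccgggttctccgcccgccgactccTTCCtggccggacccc
These windows held 3 matches to GGAA for SPRY2, 2 for SPRY4, 6 for DUSP6 and 3 for SPRED1, and 92.7% of all 35116 RefSeq windows of the same length held at least 1. The longer ETS sequence CCGGAA, which contains GGAA and accounts for the 6 capitals in a row, was found once in the SPRY2 window shown, at position -142 from the start, once in the PHLDA1 window and in 14.5% of all windows. Within these 4 windows neither the AP-1 sequence TGACTCA (4.203% of all windows) nor a CArG box, the element read by serum response factor (1.16%), was present on either strand. Matches describe the letters in the window and not factor binding, and SPRED1, which did not pass the test, held the core as well.

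SPRY2 had the highest level of the 10 per length, above 93.0% of all tested genes in DMSO, and both Sprouty members rose whenever palbociclib was present. SPRY2 (chr13:80335976-80340951) stood at 52.9 and 50.8 FPKM in DMSO, 45.8 and 49.0 in olaparib, 74.6 and 70.5 in palbociclib and 66.2 and 63.9 in combination libraries. Both palbociclib libraries and both combination libraries lay above all 4 others, and the palbociclib pair lay above the combination pair. The mean rose 1.40-fold with palbociclib, or by 0.48 ± 0.05 (SE) on the log2 scale (limma adjusted p = 0.0003), and by 0.32 ± 0.05 with the combination (adjusted p = 0.00121). With olaparib alone the difference from DMSO was -0.13 ± 0.05 (adjusted p = 0.121) and did not pass. Like all levels from whole cultures, these values cannot tell a change in RNA per cell from a change in the makeup of the cells.

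SPRY4 (chr5:142310427-142326455) moved more than SPRY2. Its level was 26.6 and 24.0 FPKM in DMSO, 20.6 and 20.7 in olaparib, 42.5 and 43.4 in palbociclib and 38.3 and 37.3 in combination libraries. The 4 pairs did not overlap: olaparib was lowest, then DMSO, then the combination, with palbociclib highest. Palbociclib raised SPRY4 1.70-fold (0.75 ± 0.05 on the log2 scale, limma adjusted p = 7.48e-05), which ranked 266 from the highest of 12443 genes. With the combination it rose by 0.56 ± 0.05, and with olaparib alone it fell by 0.28 ± 0.05 (adjusted p = 0.02). Without any single DMSO or olaparib library that olaparib call was lost (adjusted p = 0.0664 to 0.101), as it was with no filter on low values (0.0574) and under quantile normalisation (0.0762), while both other calls held in every alternative run. The ratio of SPRY4 to SPRY2 FPKM was 0.42 to 0.45 in the olaparib libraries, 0.47 and 0.50 in DMSO, and 0.57 to 0.62 wherever palbociclib was present. The antisense gene SPRY4-AS1 overlaps SPRY4 at 0.95 to 1.89 FPKM, and strand use in counting is not stated in these sources.

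SPRED1 and SPRED2, the Sprouty-related proteins that bring neurofibromin to the membrane to switch RAS off, stayed near their DMSO level in the values as deposited. SPRED1 (chr15:38252326-38357249) ranged only from 8.03 to 8.77 FPKM over the 8 libraries, with DMSO at 8.11 and 8.38 and palbociclib at 8.48 and 8.32. Its log2 difference for palbociclib against DMSO was 0.02, with a 95% interval from -0.08 to 0.13, so a change of the size seen for SPRY4 lies outside it. SPRED2 (chr2:65310851-65432637), at 3 times or more the level of SPRED1 per length, stood at 29.9 and 29.5 FPKM in DMSO, 28.5 and 30.0 in olaparib, 31.1 and 31.8 in palbociclib and 29.8 and 30.5 in combination libraries. The palbociclib pair lay just above DMSO, by 0.08 ± 0.04 (limma adjusted p = 0.114). That comparison depends on scaling: under TPM it was 0.19 (adjusted p = 0.0044) and under quantile normalisation 0.23 (0.00179), both past the threshold. For the combination, TPM called 6 of the 8 tested genes higher against DMSO and against olaparib alone, SPRED1 and SPRED2 among them. The related SPRED3 was far lower, at 1.02 and 1.11 FPKM in DMSO, and rose by 0.51 ± 0.07 with palbociclib (adjusted p = 0.00126) and by 0.64 ± 0.07 with the combination. As a share of the summed SPRED FPKM, SPRED3 went from 2.73% in DMSO to 5.42% with the combination, and SPRED2 held 73.8% to 76.1% in every group mean.

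**Figure D1:**
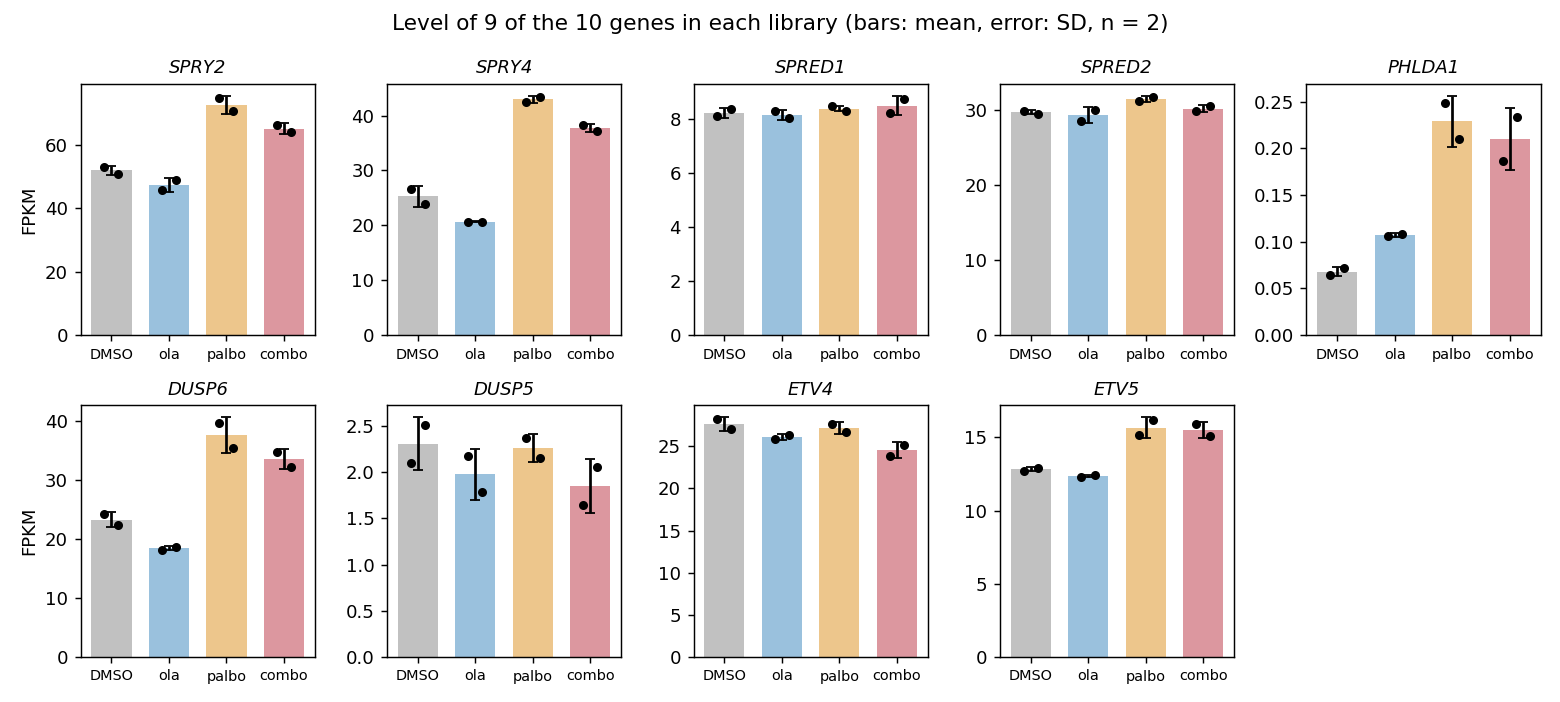
FPKM (vertical axis, from 0) of 9 of the 10 genes by treatment (ola, olaparib; palbo, palbociclib; combo, both drugs). Each point is 1 library, each bar the mean of 2, and whiskers give the SD. SPRY2, SPRY4, DUSP6 and ETV5 stand higher in the palbociclib and combination libraries than in all others, while SPRED1 stays between 8.03 and 8.77 FPKM; DUSP4, with 0 to 3 reads per library, is not drawn.

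DUSP6, the cytoplasmic phosphatase that acts chiefly on ERK, followed SPRY4. DUSP6 (chr12:89347232-89353271) stood at 24.1 and 22.4 FPKM in DMSO, 18.2 and 18.7 in olaparib, 39.7 and 35.4 in palbociclib and 34.7 and 32.3 in combination libraries. The 4 pairs were again separate and in the same order, apart from the narrow gap between the lower palbociclib library and the higher combination library. The rise with palbociclib was 1.61-fold (log2 0.67 ± 0.07, limma adjusted p = 0.000268), and with the combination 1.44-fold (0.51 ± 0.07, adjusted p = 0.000604). With olaparib alone DUSP6 fell by 0.32 ± 0.07 (adjusted p = 0.0268). That call was lost without any single DMSO or olaparib library (adjusted p = 0.0879 to 0.141), with no filter on low values (0.0839), under TPM (0.0521) and under quantile normalisation (0.0728). Reads behind these values ran from 1967 to 5231 per library.

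DUSP5 did not pass the test, and the cytoplasmic paralogs of DUSP6 were lower with the combination. DUSP5, a nuclear ERK phosphatase (chr10:110497838-110511544), was at 2.11 and 2.51 FPKM in DMSO, 2.17 and 1.78 in olaparib, 2.37 and 2.16 in palbociclib and 1.64 and 2.06 in combination libraries. Its groups overlapped except that the combination pair lay below the DMSO and palbociclib pairs, and no comparison passed. With 94 to 194 reads per library its palbociclib difference had a wide 95% interval, -0.28 to 0.24 on the log2 scale. DUSP4, another nuclear phosphatase, had 8 reads over all 8 libraries, 0 to 3 in each, and no comparison was made. DUSP7, the cytoplasmic paralog of DUSP6, went the opposite way to it: 12.3 and 12.7 FPKM in DMSO, 12.1 and 12.3 in olaparib, 9.52 and 9.35 in palbociclib and 8.25 and 8.11 in combination libraries. DUSP7 fell by 0.37 ± 0.04 with palbociclib (limma adjusted p = 0.000268) and by 0.55 ± 0.04 with the combination (adjusted p = 3.4e-05). DUSP9, another cytoplasmic ERK phosphatase, fell by 0.56 ± 0.10 with the combination (adjusted p = 0.002875), and its palbociclib value of -0.25 ± 0.10 did not pass.

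The makeup of these 5 ERK phosphatase messengers therefore differed between groups. DUSP2, described below as a phosphatase of ERK and p38, stood at 4.60 to 11.4 FPKM and was left out of the sum. The shares that follow depend on that choice. DUSP6 made up 58.2% of the summed FPKM of DUSP4, DUSP5, DUSP6, DUSP7 and DUSP9 in DMSO, 53.2% with olaparib, 74.0% with palbociclib and 75.2% with the combination. DUSP7 made up 31.2%, 35.3%, 18.6% and 18.4% in the same order. The ratio of DUSP6 to DUSP7 FPKM was 1.97 and 1.77 in DMSO, 1.49 and 1.52 in olaparib, 4.17 and 3.79 in palbociclib and 4.21 and 3.98 in combination libraries. The libraries with palbociclib thus stood apart from those without it by this ratio, and the palbociclib and combination pairs overlapped. Summed over the 5 genes the level was 39.96 FPKM in DMSO, 34.6 with olaparib, 50.7 with palbociclib and 44.5 with the combination. Ratios within a library do not depend on its scaling.

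**Figure D2:**
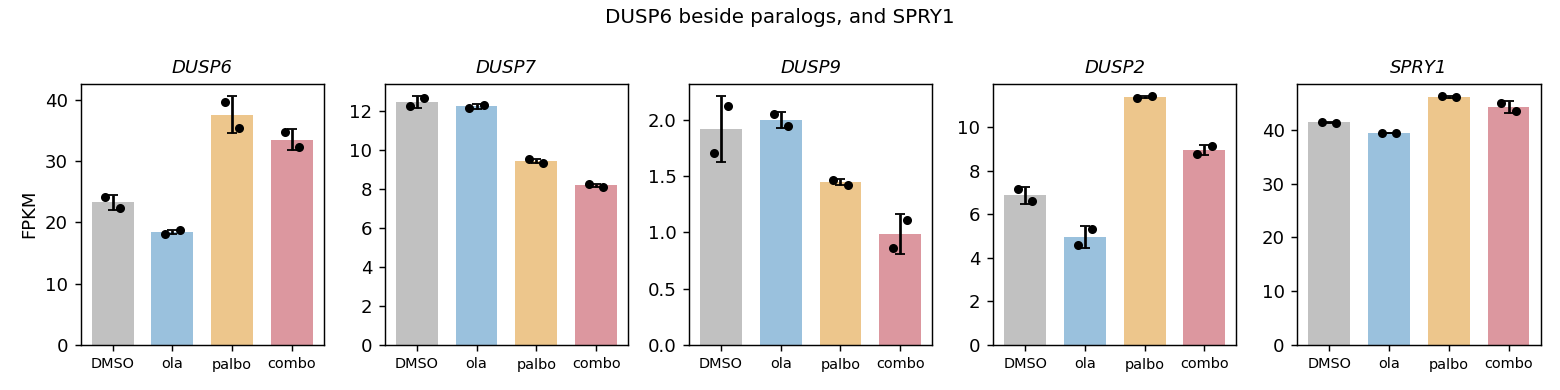
FPKM (vertical axes, from 0) of DUSP6, its cytoplasmic paralogs DUSP7 and DUSP9, the nuclear phosphatase DUSP2 and SPRY1 by treatment (ola, olaparib; palbo, palbociclib; combo, both drugs). Each point is 1 library, each bar the mean of 2, and whiskers give the SD. DUSP6 and DUSP2 stand highest with palbociclib, whereas DUSP7 goes from about 12.5 FPKM in DMSO to 8.18 with the combination.

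The 2 PEA3 factors differed from each other. ETV5 (chr3:186046308-186110318) stood at 12.7 and 12.9 FPKM in DMSO, 12.3 and 12.4 in olaparib, 15.2 and 16.2 in palbociclib and 15.9 and 15.1 in combination libraries. Its palbociclib and combination pairs overlapped and lay above all 4 other libraries. ETV5 rose by 0.27 ± 0.04 with palbociclib (limma adjusted p = 0.00231) and by 0.26 ± 0.04 with the combination (adjusted p = 0.00222). The antisense gene ETV5-AS1, at 0.15 to 1.79 FPKM, overlaps it. ETV4 (chr17:43527844-43579620) was at 28.2 and 27.1 FPKM in DMSO, 25.9 and 26.4 in olaparib, 27.6 and 26.7 in palbociclib and 23.9 and 25.2 in combination libraries. Palbociclib and DMSO overlapped for ETV4, and the combination pair was the lowest. ETV4 fell by 0.17 ± 0.04 with the combination (adjusted p = 0.0124), a call that ended under TPM (-0.03, adjusted p = 0.501), without DMSO replicate 1 (0.0859) and without combination replicate 1 (0.0619), and turned to 0.05 (adjusted p = 0.304) under quantile normalisation. The protein-coding gene DHX8 overlaps ETV4 on the other strand at 8.04 to 9.55 FPKM. ETV5 went from 28.9% of the summed ETV1, ETV4 and ETV5 FPKM in DMSO to 33.1% with palbociclib and 34.4% with the combination.

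PHLDA1 (chr12:76025447-76033932) was barely expressed in this line, at 0.06 and 0.07 FPKM in DMSO. It was at 0.11 FPKM in both olaparib libraries, 0.25 and 0.21 in palbociclib libraries, and 0.19 and 0.23 in combination libraries. These values rest on 17 reads in each DMSO library and on 33 to 54 reads in each library with palbociclib. No library with palbociclib overlapped one without it. The antisense gene AC011611.3 overlaps PHLDA1 at 0 to 0.12 FPKM, and strand use in counting is not stated in these sources. In a fit with no filter on low values, the difference from DMSO was 0.20 ± 0.04 with palbociclib (limma adjusted p = 0.0156) and 0.18 ± 0.04 with the combination (adjusted p = 0.0192). In the same fit the combination against olaparib alone was 0.13 ± 0.04 and did not pass (limma adjusted p = 0.0787). On the log2(FPKM + 1) scale such a low gene shows only a small part of its change, and the ratio of mean FPKM was 3.37 for palbociclib over DMSO.

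Palbociclib against DMSO asked what the CDK4/6 inhibitor changed by itself. Of the 8 tested genes, 4 rose (SPRY4, DUSP6, SPRY2 and ETV5) and none fell, where 50.1% of all tested genes were called, 18.7% higher and 31.4% lower. Their median log2 difference was 0.17, beside -0.05 over all tested genes. SPRY4 and DUSP6 lay above 97.9% and 97.1% of all tested genes in this comparison, and SPRY2 above 92.9%. Leaving out any 1 of the 8 libraries kept all 4 calls. TPM added SPRED2 to the genes called higher, and quantile normalisation added SPRED2 and ETV4, which makes 5 and 6.

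Olaparib against DMSO asked what the PARP inhibitor changed. SPRY4 and DUSP6 fell and none of the 8 rose, where 14.6% of all tested genes were called, 10.5% lower and 4.13% higher. Every one of the 8 had a negative log2 difference as deposited, from -0.01 for SPRED1 to -0.32 for DUSP6, with a median of -0.10 beside -0.03 over all genes. Under TPM the differences of SPRED1, SPRED2 and ETV5 turned positive, as did those of SPRED1 and SPRED2 under quantile normalisation. The count of 2 became 1 under TPM and 0 under quantile normalisation or with no filter on low values, and was 0 without DMSO replicate 1, DMSO replicate 2, olaparib replicate 1 or olaparib replicate 2. With limma voom on recovered reads, SPRY4 and DUSP6 were again the count of 2 called lower. That run kept the library sizes of the deposited values, so it cannot test their scaling.

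**Figure D3:**
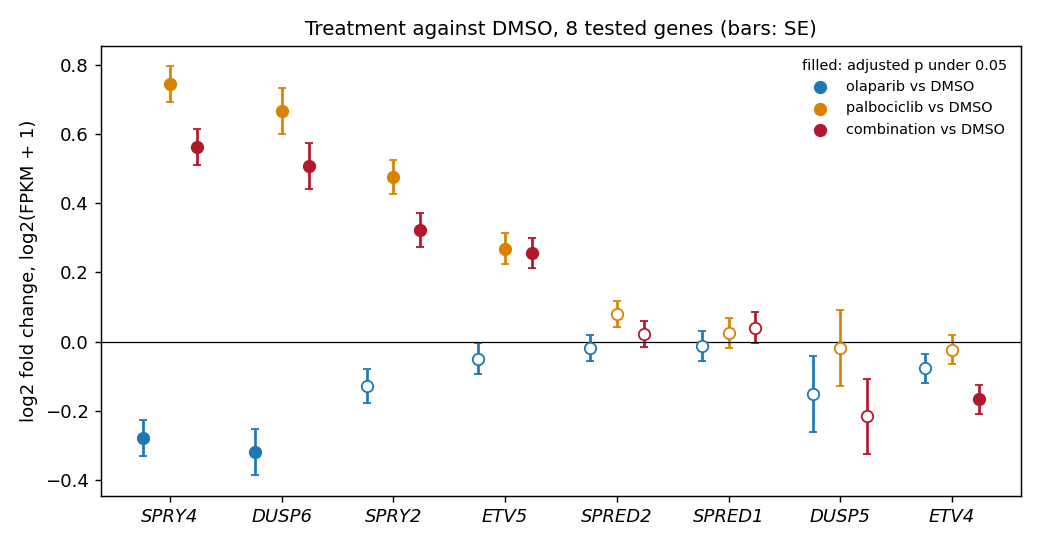
Log2 fold change against DMSO (vertical axis, log2(FPKM + 1) scale) of the 8 tested genes (horizontal axis) with olaparib, palbociclib or the combination; bars are SE from limma, and filled points passed an adjusted p of 0.05. SPRY4, DUSP6, SPRY2 and ETV5 lie above 0 with palbociclib and the combination, and SPRY4 and DUSP6 lie below 0 with olaparib.

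The combination against DMSO gave 4 genes higher, again SPRY4, DUSP6, SPRY2 and ETV5, and ETV4 lower. Over all tested genes, 56.8% were called, 21.5% higher and 35.3% lower. This comparison shares its DMSO libraries with the other comparisons against DMSO, so the lists are not independent. Against olaparib alone, the combination had the same 4 genes higher and none lower, where 44.4% of all tested genes were called, 17% higher and 27.4% lower. There SPRY4 rose by 0.84 ± 0.05 (limma adjusted p = 7.56e-05) and DUSP6 by 0.83 ± 0.07 (adjusted p = 0.000182), ranks 138 and 147 from the highest of all tested genes. SPRY2 rose by 0.45 ± 0.05 and ETV5 by 0.30 ± 0.04. Each of these 4 calls against olaparib held without any 1 library. Scaling moved both counts: under TPM 6 of the 8 were higher and 0 lower, against DMSO and against olaparib. Under quantile normalisation 5 were higher and 0 lower in each.

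Olaparib added to palbociclib left every one of the 8 below the threshold. Limma called 0 of them in the combination against palbociclib, where 0.0241% of all tested genes were called, and 4 had an unadjusted p under 0.05 (2067 of 12443 over all genes). These 4 were SPRY4 (-0.18 ± 0.05, adjusted p = 0.179), SPRY2 (-0.15 ± 0.05, 0.209), DUSP6 (-0.16 ± 0.07, 0.294) and ETV4 (-0.14 ± 0.04, 0.193), and in each the combination pair lay below the palbociclib pair. SPRY4 was called lower by voom on recovered reads (adjusted p = 0.0445), the one call of any alternative here. The departure from additivity is the change by olaparib on top of palbociclib less its change on DMSO alone. Limma called it for 0 of the 8, where 0.00804% of all tested genes were called. Of the 8, 0 had an unadjusted p under 0.05 (1315 of 12443 over all genes), and voom called 0 of the 8. The estimated departure was 0.10 for SPRY4 (95% interval -0.07 to 0.27), 0.16 for DUSP6 (-0.06 to 0.38) and -0.03 for SPRY2 (-0.19 to 0.14).

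Of 12 tested other genes known to be induced by ERK, 7 rose with palbociclib, none fell and 5 did not pass, with a median of 0.28. The split was 7 higher and 1 lower under quantile normalisation, 8 and 1 with voom on recovered reads, and 8 and 0 under TPM. Over all tested genes 18.7% were called higher and 31.4% lower, with a median of -0.05. These shares were 4.13% and 10.5% with olaparib, and 21.5% and 35.3% with the combination. EGR1, an immediate early transcription factor, went from 15.1 and 13.2 FPKM in DMSO and 11.2 and 14.3 in olaparib libraries to 70.4 and 62.4 in palbociclib and 63.7 and 52.4 in combination libraries, with no overlap between the groups with and without the drug. It rose by 2.16 ± 0.14 with palbociclib (limma adjusted p = 6.07e-05) and FOS, a subunit of the AP-1 factor, by 1.25 ± 0.08. EGR3 rose by 0.82 ± 0.10. With the combination 8 of 12 rose, beside 21.5% of all tested genes, and PLAUR, the urokinase receptor gene, fell by 0.27 ± 0.07, a call lost under TPM, with no filter on low values and without DMSO replicate 1 or combination replicate 1. Olaparib raised EPHA2 (0.27 ± 0.07) and SPRED3 (0.29 ± 0.07) and lowered IER2 (-0.21 ± 0.05), and each of these 3 calls was lost without any 1 DMSO, olaparib or palbociclib library, that of SPRED3 also without either combination library. SPRY1, the remaining Sprouty gene listed at 41.5 and 41.3 FPKM in DMSO, rose by only 0.15 ± 0.03 with palbociclib (adjusted p = 0.00709), a call lost without DMSO replicate 2. With the combination SPRY1 rose by 0.09 ± 0.03, close to the threshold (limma adjusted p = 0.0446). The count of 8 that rose with the combination was 7 with voom on recovered reads and with only the groups compared. It was also lower without any 1 DMSO, olaparib or palbociclib library. With a minimum of 5 FPKM, 3 of 6 tested genes rose. The share of SPRY1 in the summed Sprouty FPKM went from 34.9% in DMSO to 28.5% with palbociclib, while that of SPRY4 went from 21.3% to 26.6%.

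Of 7 other MAP kinase phosphatases, 5 were tested. With palbociclib 1 rose, DUSP2, and 1 fell, DUSP7, shares near those over all tested genes (18.7% higher and 31.4% lower). DUSP2, a nuclear phosphatase of ERK and p38, stood at 7.15 and 6.59 FPKM in DMSO, 4.60 and 5.32 in olaparib, 11.3 and 11.4 in palbociclib and 8.77 and 9.11 in combination libraries. The pairs were separate and in the order of SPRY4, from olaparib through DMSO and the combination to palbociclib. DUSP2 rose by 0.65 ± 0.07 with palbociclib (limma adjusted p = 0.000272) and fell by 0.40 ± 0.07 with olaparib (adjusted p = 0.016), the latter call being lost without any 1 DMSO or olaparib library. DUSP7 and DUSP9 were the 2 that fell with the combination, and DUSP2 rose. Over all tested genes 35.3% were called lower and 21.5% higher there.

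**Figure D4:**
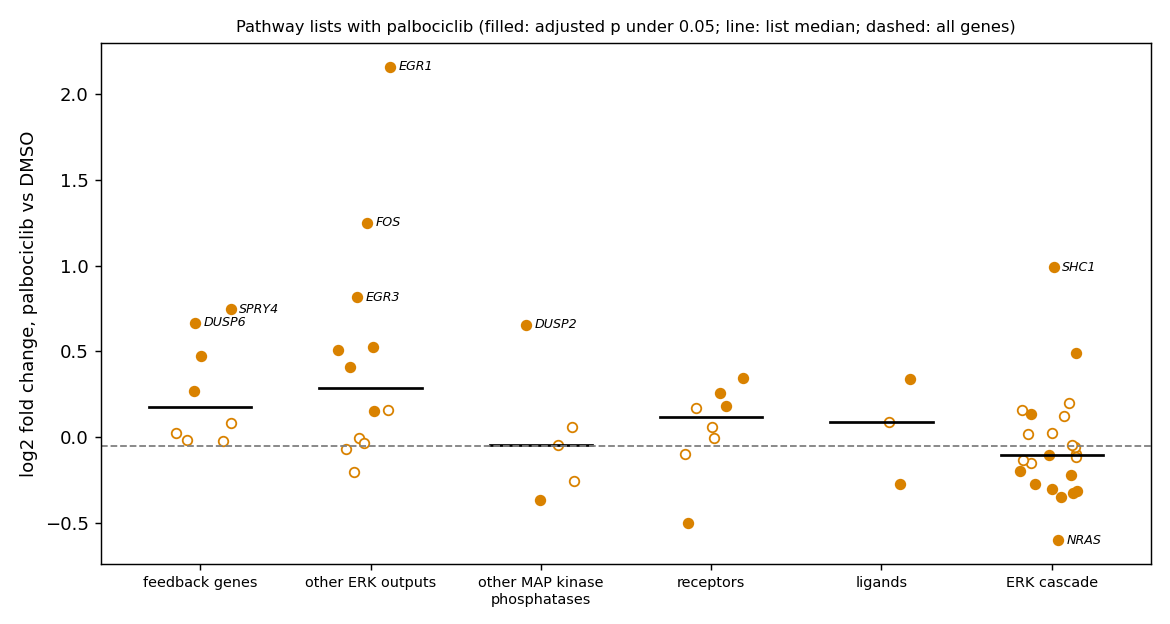
Log2 fold change of palbociclib against DMSO (vertical axis) for the tested genes of each list (horizontal axis); each point is a gene, filled where the adjusted p was under 0.05, black lines are list medians and the dashed line the median of all tested genes (-0.05). The 8 feedback genes and the other ERK outputs lie mostly at or above 0, led by EGR1 at 2.16, while 9 of 23 cascade genes fell, NRAS furthest.

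Genes of the cascade and of its regulators were called in both directions. The 23 tested were adaptor, RAS, RAF, MEK, ERK and RSK genes, with regulators such as PTPN11, NF1, RASA1, RASA2 and LZTR1. With palbociclib 9 of the 23 fell, 3 rose and 11 did not pass (median -0.11). These counts are near the shares over all tested genes (31.4% lower and 18.7% higher). NRAS, a RAS GTPase, fell by 0.60 ± 0.04, the phosphatase gene PTPN11 by 0.34 ± 0.03 and MAP2K1, which encodes MEK1, by 0.32 ± 0.05. SHC1, an adaptor between receptors and GRB2, rose by 0.99 ± 0.04 and LZTR1, which promotes RAS turnover, by 0.49 ± 0.06. The RAS GTPase activator RASA1 rose by 0.13 ± 0.04, a call lost with no filter and without any 1 DMSO, olaparib or palbociclib library. The split was 4 higher and 5 lower under quantile normalisation and 6 and 6 under TPM, and voom on recovered reads called 6 higher and 10 lower. Over all tested genes the combination called 21.5% higher and 35.3% lower, and olaparib 4.13% higher and 10.5% lower. The cascade counts that follow are near those shares. With the combination 4 rose and 8 fell, with SHC1 at 0.94 ± 0.04, LZTR1 at 0.46 ± 0.06 and NRAS at -0.60 ± 0.04, and the split was 7 and 5 under quantile normalisation and 7 and 7 under TPM, with 2 in place of 4 higher without DMSO replicate 2. With olaparib 1 rose (KSR1, 0.31 ± 0.07) and 3 fell (RPS6KA3, PTPN11 and NRAS, by 0.20, 0.19 and 0.19), and none of the 4 passed without any 1 of the DMSO or olaparib libraries. With no filter on low values the olaparib calls of KSR1, RPS6KA3, NRAS, EPHA2, SPRED3, IER2, DUSP2 and AXL were lost as well. For the cascade genes with olaparib the split was 1 higher and 0 lower under quantile normalisation and 2 and 0 under TPM.

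Upstream of RAS, 8 of 14 receptor and 3 of 17 ligand genes were tested. Over all tested genes 21.5% were called higher and 35.3% lower with the combination, and 4.13% and 10.5% with olaparib. With palbociclib 3 receptor genes rose, IGF1R (0.35 ± 0.03), AXL (0.26 ± 0.06) and ERBB2 (0.18 ± 0.05), and FGFR4 fell by 0.50 ± 0.06, where 18.7% of all tested genes were called higher and 31.4% lower. Under TPM 5 of the 8 were higher, with palbociclib and with the combination, through FGFR3 and INSR. The calls for AXL and ERBB2 were lost without DMSO replicate 1 and without palbociclib replicate 2, and that for ERBB2 also without palbociclib replicate 1. With the combination IGF1R, AXL and ERBB2 rose, the last not without DMSO replicate 1, and FGFR4 fell by 0.73 ± 0.06, and with olaparib AXL rose by 0.39 ± 0.06, a call lost without any 1 DMSO or olaparib library. Among ligands, HGF, at 50.1 FPKM in DMSO, rose by 0.34 ± 0.06 with palbociclib and 0.39 ± 0.06 with the combination. FGF2 fell by 0.27 ± 0.07 and 0.38 ± 0.07, the first call being lost under TPM, without DMSO replicate 1 and without palbociclib replicate 2. Ligands of the EGF receptor were at or near 0: EGF, TGFA, AREG and EREG each stood at or below 0.09 FPKM in the DMSO mean, and HBEGF at 0.56.

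Genes with the most similar pattern over the 8 libraries were found by the root mean square difference of centred log2(FPKM + 1) values. For DUSP6 the nearest were POC1B (0.07) and EMP1 (0.09), and for SPRY4 they were PCAT14 (0.07) and POC1B (0.08), so POC1B stood near both. For SPRY2 the nearest were ZNF786 and LRRC32 (0.04 each), for ETV5 USP27X (0.02) and CRYZL2P (0.03), and for ETV4 STAT5B and POLR1C (0.02 each). SPRED1 lay nearest to YAP1 and PTK2 and SPRED2 to SLC35B2 and FAH (0.02 each), and DUSP5 to SHLD3 and H3F3AP4 (0.05 each). These distances are descriptions of 8 libraries, and genes that barely vary, such as SPRED1 (0.03 from its own mean), are near many others.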

How the data were processed

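The authors deposited FPKM values for 31721 Ensembl genes in 8 columns, 1 per library of polyA RNA. CASAVA 1.8, STAR 2.5.1b, HTSeq 0.6.0, GRCh38 and hg38 are named without role or order, per the submitters' processing notes; strand use in counting is not stated there. GENCODE v29 (GRCh38) gave symbols, positions and exon lengths for 30945 genes. With those lengths 28635 genes (90.3%) gave whole reads in every library within 0.01 reads, and a length was searched for the other 3086; depth was 20566158 to 34057055 reads. Replicate pairs differed beyond sampling noise (chi-square per degree of freedom of 2.24 to 3.75). The library size recovered from the deposited scaling was not the read total. It was 32511952 beside 34057055 reads in DMSO replicate 1, and 21892605 beside 20566158 reads in combination replicate 1. Sizes lay below the reads in the DMSO and olaparib libraries and above them in the palbociclib and combination libraries. The voom alternative used these same sizes.

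Values were tested as log2(FPKM + 1), which understates changes of low genes, in limma 3.58.1 (R 4.3.3), with 1 mean per group, all 8 libraries in a single fit (4 residual degrees of freedom), a trended prior and Benjamini-Hochberg adjustment over the 12443 genes with a mean of at least 1 FPKM, at 0.05, two-sided. An exact permutation test of 2 against 2 cannot go below 0.333 and was not used. The script was tested on simulated data. All 10 genes are named; from each pathway list the text names up to 3 called genes with the highest and 3 with the lowest change per treatment, and for each tested member its 2 nearest genes. EGFR, MET and the other genes given for how they split the libraries, FGFR3, INSR, and the phosphatases, SPRED3 and SPRY1 set beside their paralogs, were named after their values were seen. Lists were GRB2 to RPS6KA3 (23 cascade genes), 14 receptors, 17 ligands, 16 other outputs, 7 other phosphatases, 6 drug response checks and markers; a blood cell marker is not reported here. The members and lists were chosen with earlier results of these data known. Alternatives were another pseudocount (0.1), no filter or a minimum of 5 FPKM, quantile and TPM scaling, limma voom on recovered reads, only the groups compared, a replicate block and leaving out each library.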

Additional observations from a re-analysis of the deposited data

How the results depend on the processing

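Counts of called genes among the 8 held within 1.5 times except in 2 comparisons. With olaparib the count of 2 became 0 with no filter on low values and under quantile normalisation, 1 under TPM, and ran from 0 to 2 without 1 library. For the combination against palbociclib the count of 0 became 1 with voom on recovered reads. TPM moved the median of all genes for the combination against DMSO from -0.06 to 0.06, and the share of higher calls with palbociclib from 37.3% to 56.1% (46.5% under quantile normalisation), with olaparib from 28.2% to 66.5% (60.2%), and with the combination from 37.8% to 57.4% (46.9%); against olaparib it went from 38.2% to 53.9%. Of the values that changed sign, ETV4 against DMSO passed in the combination as deposited and ETV4 with palbociclib passed under quantile normalisation. Under quantile normalisation ETV4 was 0.048 for the combination against DMSO, 0.061 against olaparib and 0.130 for palbociclib against DMSO (0.078 under TPM). SPRED1 and SPRED2 with olaparib were 0.0040 and 0.045 under quantile normalisation and 0.047 and 0.0435 under TPM, and SPRED2 for the combination against palbociclib was 0.0013 under quantile normalisation. ETV5 was 0.029 and 0.023 for the combination against palbociclib under quantile normalisation and TPM, and 0.011 with olaparib under TPM; DUSP5 with palbociclib was 0.070 under TPM. Without 1 library, DUSP5 ran from -0.17 to 0.041 for the combination against olaparib, -0.15 to 0.059 for the departure from additivity and -0.11 to 0.071 with palbociclib. ETV4 with palbociclib ran from -0.053 to 0.0045, ETV5 from -0.056 to 0.030 for the combination against palbociclib and -0.0071 to 0.079 for the departure from additivity, and SPRY2 from -0.073 to 0.021 for the latter. SPRED1 ran from -0.023 to 0.056 for the combination against palbociclib, -0.0098 to 0.069 for the departure from additivity and -0.034 to 0.0076 with olaparib, and SPRED2 with olaparib from -0.055 to 0.017. The cause was not tested. A lone library left in a group is assumed there to vary like the other groups. Replicate numbers did not pair the libraries (correlations of replicate differences between groups from -0.05 to 0.03), and a replicate block kept every count, at 2, 4, 5, 4, 0 and 0 in the order of the comparisons given. Only the groups compared could not be fitted for the departure from additivity. With 2 libraries per group and few reads, DUSP4 and PHLDA1 are limited by depth.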

Other observations

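Several receptor tyrosine kinase genes divided the libraries in a way that crosses the treatment groups. EGFR stood at 1.46 and 1.55 FPKM in DMSO, 0.75 and 0.39 in olaparib, 0.76 and 0.31 in palbociclib and 0.25 and 0.32 in combination libraries. MET stood at 0.51 and 0.60 FPKM in DMSO and at 0.60 and 0.67 in replicate 1 of olaparib and palbociclib, but at 0 to 0.02 FPKM in replicate 2 of each and in both combination libraries. KIT (0.44 to 0.65 FPKM), FGFR2 (0.41 to 0.52), ALK (0.84 to 0.94) and ROS1 (0.42 to 0.71) were present in the same 4 libraries and stood at 0 to 0.01 FPKM in the other 4. RET went from 0.56 to 0.70 FPKM in those 4 to 0.04 to 0.08 in the others, and PDGFRA from 0.22 to 0.32 FPKM to 0.06 to 0.11. The pseudogenes of MAP2K1, BRAF and GNAQ did likewise, with MAP2K1P1 at 0.32 to 0.77 FPKM against 0 to 0.04. All of these genes fell below the level at which genes were tested. Whether the reads of these genes came from the labelled cells or from another library was not tested, so their values are not taken as levels in A2780.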
